A study of Mus musculus with 4 samples.

Results

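The nuclear-encoded genes of the mitochondrial respiratory chain and ATP synthase were followed in bulk RNA of mouse back-skin epidermis with and without an intact Irx5 gene. Members were taken by gene symbol: the Nduf genes of complex I, the Sdh genes of complex II, the Uqcr genes of complex III, the Cox5 to Cox8 genes of complex IV and the Atp5 genes of ATP synthase. The rule matched 81 of the 23847 rows of the deposited table, with 37 genes in complex I, 4 in complex II, 8 in complex III, 15 in complex IV and 17 in ATP synthase. Assembly factors (Ndufaf1 to Ndufaf7 and Uqcc, 8 genes) help to build the complexes without being part of them and were kept apart. A symbol rule also takes in names that mislead, and these are pointed out where they occur.

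The respiratory chain sits in the inner mitochondrial membrane. Complexes I and II pass electrons from NADH and succinate to coenzyme Q, complex III passes them on to cytochrome c, and complex IV hands them to oxygen. Complexes I, III and IV pump protons across the membrane as they do so, and ATP synthase lets the protons flow back to make ATP. Complex II is encoded wholly in the nucleus, whereas the other complexes combine nuclear subunits with a few made from mitochondrial DNA. No row of the table carried the symbol of a mitochondrially encoded subunit, so the nuclear part alone is described. In epidermis the chain serves keratinocytes, the main cell type, whose basal cells divide and whose upper layers differentiate into the skin barrier.

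Whole epidermis was prepared from the back skin of mice at postnatal day 20 by trypsin digestion and mechanical separation, and its total RNA was sequenced. The groups were wild type (WT, Irx5+/+, n = 2 libraries) and Irx5 knockout (Irx5KO, Irx5-/-, n = 2 libraries). The Irx5 protein is an Iroquois homeodomain factor that binds DNA, and the series is titled for its role in DNA damage repair and hair follicle stem cells. The labels give no strain, sex, litter, allele or Cre driver, and they call the material primary epithelial cells. Expression is given in FPKM (fragments counted per transcript length and per sequenced total), so levels can be set side by side between genes.

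Both WT libraries held Xist, the RNA of the inactive X chromosome, at 33.9 to 36.6 FPKM and the 4 Y-linked genes examined at 0.0422 FPKM or less. Both Irx5KO libraries held Xist at 0.0606 FPKM or less and the Y-linked genes at 6.33 to 75.7 FPKM, so sex and genotype cannot be told apart in any comparison here. Irx5 itself was present in the knockout libraries at 59.5% of its WT mean. Summed keratinocyte markers (7 of 7 tested) ran from 13496 to 17685 FPKM, and among them the basal keratin Krt14 fell (change -1.69 on the log2 scale) and Trp63, a factor of basal cells, rose (0.95), by the limma test described below. Markers of other cells were far lower. Those of Langerhans and T cells summed to 1102 and 583 FPKM in WT and to 307 and 401 FPKM in Irx5KO, and 3 of the 7 fell, with Cd207, the langerin of Langerhans cells, at -2.92, Cd74 at -1.03 and H2-Ab1 at -1.64. Those of red blood cells summed to 129.7 and 275 FPKM in WT and to 67.8 and 116 FPKM in Irx5KO. Of 3 tested rows 2 fell, both of the globin gene Hba-a1, and the change of the remaining row was 0.02. The part of these markers in the results below was not tested. The other sums were 13.5 to 32.4 FPKM for adipocytes, 10.9 to 30.0 for melanocytes, 4.44 to 6.09 for skeletal muscle, 1.93 to 4.37 for fibroblasts and 0.649 to 1.45 for endothelium. Of the tested genes in these lists, 1 of 2 fell for adipocytes and 1 of 4 for melanocytes, and none rose. In bulk RNA, fewer cells of a type and less RNA per cell cannot be told apart. Library sums of the deposited values were 603270 and 538695 FPKM (WT) and 451080 and 511333 FPKM (Irx5KO), replicate 1 first, the order used for every pair of values. From the steps between low values, the median member was estimated to rest on 2984 to 3812 fragments per library.

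Promoters of respiratory genes are known for sites of NRF1, of the ETS factor GABPA and of YY1, and 4 of them are shown because they belong to genes on which the results below turn or, for Sdha, because of its 3 matches. Ndufb4 and Cox6a1 also held 3 in the window searched, but not all of them within the bases shown here. RefSeq (GRCm38.p6) gave promoters, from 250 bases before to 50 bases after the start, for 68 of the 81 members. Both strands were searched for the NRF1 palindrome (GCGCA and GCGC with any 1 base between them), for the ETS letters CCGGAAG and for the YY1 letters AAGATGGC. The NRF1 letters stood in 17 of 68 members (25.0%), against 5.19% of all 27025 genes with a promoter. The ETS letters stood in 16 (23.5%, against 9.93%) and the YY1 letters in 11 (16.2%, against 3.19%). At least one of the 3 was found in 38 members (55.9%, against 16.4% of all genes). A match describes letters in a window and says nothing of binding. Each line gives the 150 bases before the start, 5′ to 3′ on the gene's strand, with the matches in capitals. Sdha, the flavoprotein subunit of complex II, lies on the minus strand (window chr13:74350241-74350390) and holds 3 NRF1 matches, which begin 98, 55 and 10 bases before the start. Atp5k, subunit e of ATP synthase, lies on the minus strand (chr5:108434400-108434549) with 1 NRF1 match that begins 50 bases before the start. Atp5e, subunit epsilon of ATP synthase, lies on the minus strand (chr2:174464102-174464251) with 1 ETS match, read on the opposite strand, that begins 102 bases before the start. Atp5sl lies on the plus strand (chr7:25619343-25619492) under its RefSeq name Dmac2 and has 2 annotated starts. A YY1 match begins 53 bases before the start used for the window shown. Counted from the other start, which lies inside that window, the same letters begin at base 27, after the start.
Sdha promoter: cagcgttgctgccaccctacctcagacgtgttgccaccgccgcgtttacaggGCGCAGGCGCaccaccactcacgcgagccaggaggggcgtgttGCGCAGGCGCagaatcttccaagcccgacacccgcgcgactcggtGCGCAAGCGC
Atp5k promoter: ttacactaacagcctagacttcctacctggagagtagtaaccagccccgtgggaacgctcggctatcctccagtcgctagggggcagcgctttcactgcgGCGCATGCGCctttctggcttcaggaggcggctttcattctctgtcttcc
Atp5e promoter: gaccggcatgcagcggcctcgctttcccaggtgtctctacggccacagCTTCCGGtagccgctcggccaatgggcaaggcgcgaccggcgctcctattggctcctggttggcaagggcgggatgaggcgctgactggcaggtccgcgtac
Atp5sl promoter: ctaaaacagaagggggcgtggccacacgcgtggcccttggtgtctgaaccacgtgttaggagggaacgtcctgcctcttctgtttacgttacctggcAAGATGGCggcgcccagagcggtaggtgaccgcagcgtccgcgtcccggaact

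Respiratory chain genes were among the abundant transcripts of the epidermis and few of them passed the test between the genotypes. Of the 81 members, 76 reached the level set for testing (at least 1 FPKM in at least 2 of the 4 libraries), with a median of 77.1 FPKM over members of the mean of the 4 libraries, against 9.79 FPKM over all 11643 rows tested. One subunit gene fell in Irx5KO (Atp5e) and 1 gene rose that is not a subunit in spite of its name (Atp5sl), by limma on log2(FPKM + 1) with Benjamini-Hochberg adjustment over all rows tested and a threshold of 0.05. That is 1.32% of the members in each direction. Over all rows, 26.9% were called higher and 9.22% lower, 36.1% together. At an unadjusted p under 0.05 there were 2 members higher and 5 lower. The median change of the members was -0.06 on the log2 scale (Irx5KO minus WT), against 0.26 over all rows tested, and 70 of 76 lay below that median. Changes ran from -0.75 to 0.96. For 67 members (88.2%) the 95% interval of the change stayed inside -1 to 1, against 67.2% of all rows.

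**Figure D1:**
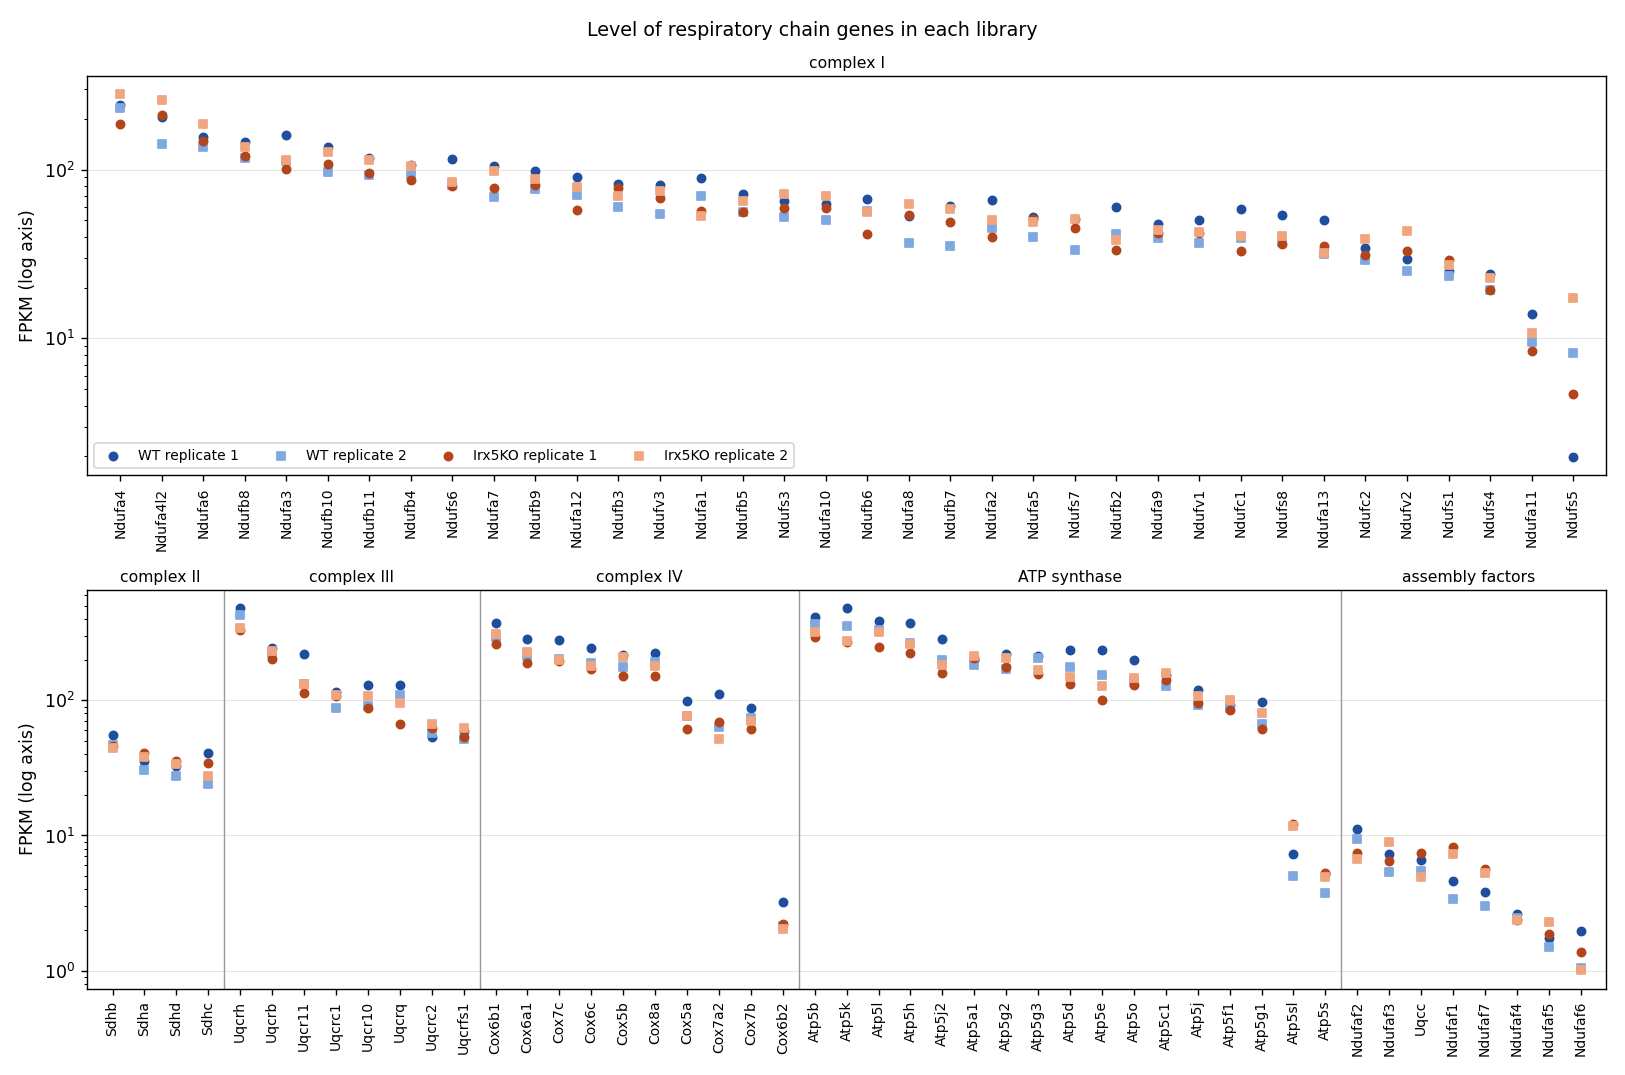
FPKM of the tested respiratory chain genes and assembly factors, with 1 member left out, in each of the 4 libraries (log axis), grouped by complex and ordered by mean level. WT libraries are blue and Irx5KO libraries red or orange, with circles for replicate 1 and squares for replicate 2. WT replicate 1 is above WT replicate 2 for nearly every gene, and the 2 genotypes overlap for most.

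The libraries of one genotype stood apart as much as the genotypes did. WT replicate 1 was above WT replicate 2 for 74 of 76 members (97.4%, against 62.1% of all rows), with a median difference of 0.36 on the log2 scale, against 0.10 over all rows. Uqcrc2 and Ndufs5 were the exceptions. This difference was not particular to the members. Its median was 0.38 over 705 non-member rows with annotated transcripts under 1000 bases, and 0.39 over 76 mitochondrial ribosomal proteins. Over the 10421 non-member rows at or above 1000 bases it was 0.08. Over 1293 non-member rows with a mean of at least 50 FPKM it was 0.13. Irx5KO replicate 1 was above Irx5KO replicate 2 for 13 members, with a median difference of -0.19. The summed level of all members was 10222 and 8024 FPKM for WT against 7407 and 8492 FPKM for Irx5KO, so the second knockout library lay between the WT libraries. As a share of all FPKM in the library, the members held 1.69% and 1.49% in WT and 1.64% and 1.66% in Irx5KO. Both Irx5KO libraries lay above both WT libraries for 10 members and below both for 20 (13.2% and 26.3%), against 54.3% and 18% of all rows and 72.3% for either direction. The other 46 members overlapped.

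**Figure D2:**
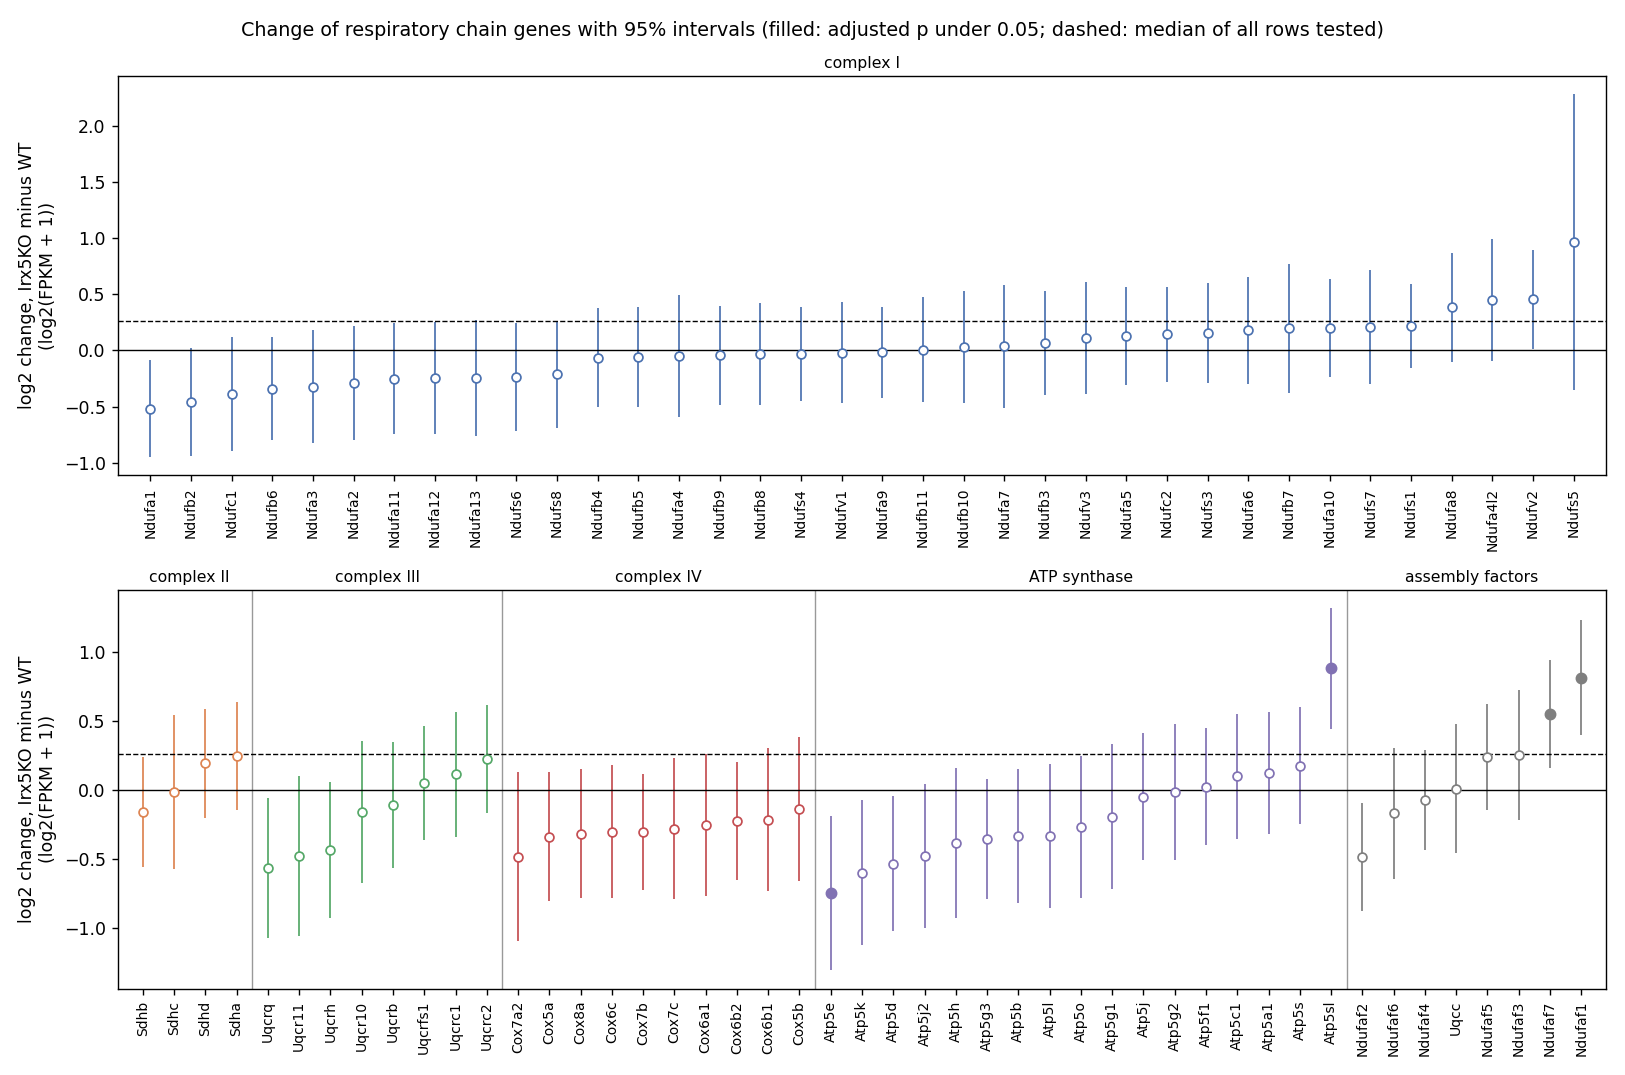
Change of the tested genes (log2(FPKM + 1), Irx5KO minus WT), with 1 member left out, and their 95% intervals from limma, n = 2 libraries per group, ordered within each complex. Filled points are Atp5e, Atp5sl, Ndufaf1 and Ndufaf7, the genes past an adjusted p of 0.05, and the dashed line at 0.26 is the median of all rows tested.

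Complex I, the NADH dehydrogenase and the entry point of most electrons, had 37 tested genes and none was called in either direction (lowest adjusted p = 0.0620, and 1 gene higher and 1 lower at an unadjusted p under 0.05). Its summed level was 2989 and 2297 FPKM for WT against 2420 and 2866 FPKM for Irx5KO, with group means of 2643 FPKM in both. The median change of its genes was -0.02, with 18 above and 19 below 0, and it was 0.23 under TPM and 0.15 under quantile normalization. The 7 core subunits, which carry the flavin and the iron-sulfur clusters, had a median of 0.21, and the 28 accessory subunits one of -0.03. That difference between roles was not tested.

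Among the core subunits, Ndufv2, which holds an iron-sulfur cluster next to the site of NADH oxidation, measured 29.6 and 25.0 in WT libraries and 33.1 and 43.0 FPKM in knockouts. Its libraries did not overlap, but the change of 0.46 (SE 0.193) did not pass (limma adjusted p = 0.0938). Ndufs1, the largest core subunit, was at 24.1 ± 1.14 FPKM for WT against 28.3 ± 1.27 FPKM for Irx5KO (SD, n = 2 each). Its change of 0.22 did not pass (adjusted p = 0.317).

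Ndufa1, an X-linked accessory subunit of the membrane arm, had the lowest change of complex I. It was at 89.3 and 69.9 FPKM (WT) against 56.8 and 53.2 FPKM (Irx5KO). Both knockout libraries lay below both WT libraries, and the change of -0.52 (SE 0.191) did not pass (limma adjusted p = 0.0620). The other X-linked members, Ndufb11 of complex I and Cox7b of complex IV, had changes of 0.01 and -0.30 (adjusted p = 0.980 and 0.226).

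Ndufs5, an accessory subunit of the membrane arm, had the highest change of all members and the widest interval. WT replicate 1 held 1.98 FPKM and WT replicate 2 held 8.18 FPKM, with 4.67 and 17.3 FPKM in the corresponding knockout libraries. The second library of each genotype was the high one and the genotypes overlapped, so the change of 0.96 came with a 95% interval of -0.35 to 2.28 (limma adjusted p = 0.217). When Irx5KO replicate 1 was left out the change was 1.81, and without WT replicate 1 it was 0.15. The first of these was past the threshold in a fit that gave every row the spread common to rows of its level, so the difference of -1.62 (replicate 1 minus replicate 2) between the WT libraries for this gene did not enter its p, which is not given.

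Ndufa4 was the most abundant gene with a complex I name, although its protein is now assigned to complex IV. It measured 241 and 230.5 in WT libraries and 186 and 279 FPKM in knockouts, a change of -0.05 (limma adjusted p = 0.890). The knockout libraries stood on either side of the WT ones. Its homologue Ndufa4l2, a gene induced under low oxygen, was almost as abundant, with 206 and 142 FPKM (WT) against 211 and 258 FPKM (Irx5KO). Both knockout libraries were above both WT libraries, by a small margin for one of them, and the change of 0.45 (SE 0.241) did not pass (adjusted p = 0.172).

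Complex II, succinate dehydrogenase, also works in the citric acid cycle, and it was the least abundant complex by median level (34.2 FPKM over its 4 genes). None of its genes was called (lowest adjusted p = 0.291, none at an unadjusted p under 0.05). Its summed level was 164 and 128 in WT libraries and 156 and 143 FPKM in knockouts, and the median change was 0.09, or -0.21 under median of ratios. Sdha, the flavoprotein whose promoter carries the 3 NRF1 matches shown above, was at 35.5 and 30.4 FPKM (WT) against 40.5 and 37.8 FPKM (Irx5KO) (change 0.25, adjusted p = 0.291). Sdhb, the iron-sulfur subunit, was at 55.2 and 46.3 in WT libraries and 46.0 and 44.4 FPKM in knockouts (change -0.16, adjusted p = 0.501). These 2 catalytic partners thus had changes of opposite sign, neither past the threshold. Sdhc and Sdhd anchor them in the membrane. Sdhc was at 40.5 and 24.1 FPKM (WT) against 34.4 and 27.7 FPKM (Irx5KO) (change -0.02, adjusted p = 0.966), and Sdhd at 32.7 and 27.5 in WT libraries and 35.4 and 33.5 FPKM in knockouts (change 0.19, adjusted p = 0.405).

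Complex III, the cytochrome bc1 complex, had 8 tested genes and no call (lowest adjusted p = 0.0766, 1 gene lower at an unadjusted p under 0.05). Its summed level was 1433 and 1186 FPKM (WT) against 1023 and 1149 FPKM (Irx5KO), 82.9% of the WT mean, against 84.3% for all rows. The 2 core proteins and the Rieske iron-sulfur protein (Uqcrc1, Uqcrc2 and Uqcrfs1) had a median change of 0.11, and the 5 small subunits one of -0.44, in the values as deposited. The median of the whole complex was -0.14, but 0.11 under TPM and 0.17 under quantile normalization. The difference between the roles was not tested, and the 2 groups also differed in length (medians of 1653 and 535 bases) and level.

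Uqcrh, the hinge protein that contacts cytochrome c1, was the most abundant of all members. It measured 485 and 431 in WT libraries and 329.9 and 345 FPKM in knockouts. The knockout libraries lay below both WT libraries, and the change of -0.44 (SE 0.218) did not pass (limma adjusted p = 0.144). Uqcrq, a small subunit near the coenzyme Q site, had the lowest change of the complex. It was at 130.0 and 109 FPKM (WT) against 66.5 and 96.2 FPKM (Irx5KO), a change of -0.57 (SE 0.225, adjusted p = 0.0766). Uqcrc2 had the highest, with 53.3 and 57.4 FPKM (WT) against 62.6 and 67.0 FPKM (Irx5KO) (change 0.22, adjusted p = 0.332).

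Complex IV, cytochrome c oxidase, had 10 tested genes and 5 below the level for testing. None was called (lowest adjusted p = 0.187, none at an unadjusted p under 0.05). In the values as deposited the change of all 10 was below 0, with a median of -0.29, whereas with quantile normalization the median was 0.04. The summed level was 1922 and 1483 in WT libraries and 1309 and 1501 FPKM in knockouts, and WT replicate 2 lay below Irx5KO replicate 2. The knockout mean was 82.5% of the WT mean, against 84.3% for all rows.

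The most abundant gene of complex IV was Cox6b1, a subunit on the side facing cytochrome c. It was at 374 and 292 FPKM (WT) against 261 and 309.8 FPKM (Irx5KO), so that the genotypes overlapped (change -0.22, limma adjusted p = 0.480). Cox7a2, which carried the lowest change of the complex, was at 111 and 63.8 in WT libraries and 68.9 and 51.9 FPKM in knockouts (change -0.48, adjusted p = 0.187). Its WT libraries differed from each other more than the group means did. Cox5b, a zinc-binding subunit, had the change nearest to 0, with 217 and 177 FPKM (WT) against 152 and 208 FPKM (Irx5KO) (change -0.14, adjusted p = 0.654).

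Isoforms of complex IV that are known from heart and skeletal muscle or from testis were the members below the level for testing. Cox6a2, the muscle partner of Cox6a1, was listed at 0 in 3 libraries and at 0.0425 FPKM in Irx5KO replicate 2, while Cox6a1 was at 248 ± 48.2 FPKM for WT against 207 ± 27.4 FPKM for Irx5KO (SD, n = 2 each). Cox7a1, the muscle partner of Cox7a2, was at 0.478 and 0.432 in WT libraries and 0.361 and 0.124 FPKM in knockouts. Cox7b2, Cox8b and Cox8c were listed at 0 in all 4 libraries, beside 81.1 ± 9.35 FPKM of Cox7b and 207 ± 21.8 FPKM of Cox8a in WT. Cox6b2, the testis partner of Cox6b1, was low but tested, at 3.22 and 2.15 FPKM (WT) against 2.21 and 2.05 FPKM (Irx5KO) (change -0.22, limma adjusted p = 0.375). Of 10 skeletal muscle markers, 9 were likewise below the level for testing, from Myh1, Myh2 and Myh4 at 0.00564 FPKM or less to Mb at up to 0.476 FPKM, and Mylpf, a muscle myosin light chain, was at 4.04 to 5.25 FPKM.

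**Figure D3:**
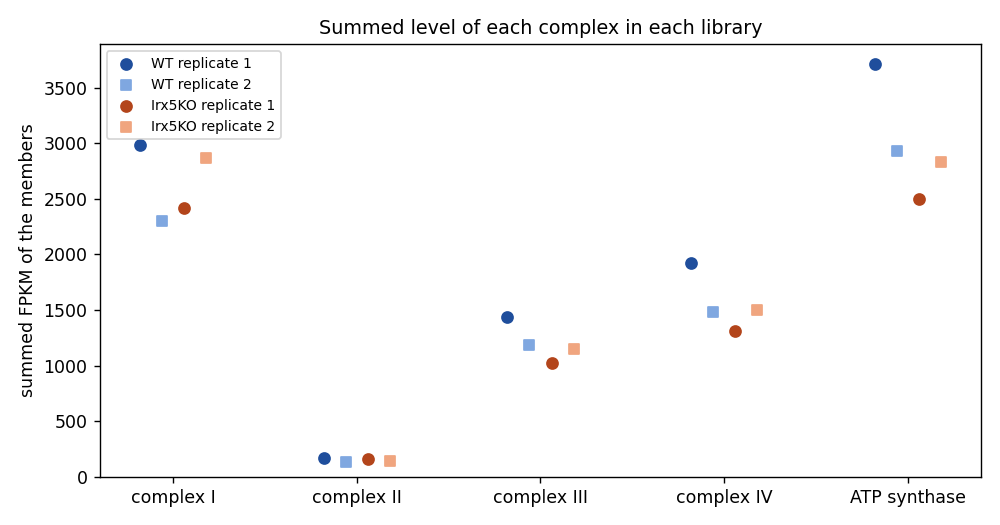
Summed FPKM of the members of each complex in each library (4 libraries, linear axis from 0). For complexes III and IV and ATP synthase, WT replicate 1 is highest and Irx5KO replicate 1 lowest, and WT replicate 2 and Irx5KO replicate 2 are close to each other.

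The genes with ATP synthase symbols held both called members, of which Atp5e is a subunit and Atp5sl is not. The 17 genes summed to 3714 and 2929 FPKM in WT and to 2497 and 2833 FPKM in Irx5KO. That was 80.2% of the WT mean, against 84.3% for all rows. The median change was -0.27 as deposited, with 12 genes below 0, and it was 0.12 with quantile normalization. These figures include Atp5sl and Atp5s, which are not subunits and had changes of 0.88 and 0.18. By role, the median change was -0.34 over the 5 genes of the F1 head and stalk, where ATP is made, -0.19 over the 3 genes of the c ring, the rotor driven by protons, -0.16 over the 4 genes of the peripheral stalk and -0.48 over the 3 genes of the membrane subunits e, f and g.

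Atp5e encodes subunit epsilon of the central stalk (chromosome 2, 174461072 to 174464105 on GRCm38, minus strand) and was the called subunit that fell. The WT libraries held 236 and 155 FPKM, the Irx5KO libraries 101 and 127 FPKM. Both knockout libraries were below both WT libraries, and the means of 195 ± 57.6 and 114 ± 18.8 FPKM (SD, n = 2 each) gave a change of -0.75 (SE 0.248, limma adjusted p = 0.0432). Over the alternatives its adjusted p ran from 0.0145 to 0.285. The call ended without WT replicate 1 (change -0.45, adjusted p = 0.141), without Irx5KO replicate 1 (-0.58, adjusted p = 0.247), under quantile normalization (-0.45, adjusted p = 0.137), with a mean of at least 5 FPKM as the filter (adjusted p = 0.0550) and with no filter (adjusted p = 0.285).

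The other stalk and membrane genes with low changes were not called. Atp5d, subunit delta and the partner of epsilon in the stalk, was at 207 ± 41.3 FPKM for WT against 141 ± 11.8 FPKM for Irx5KO (SD, n = 2 each), a change of -0.54 (adjusted p = 0.0803). Atp5k, whose promoter is shown above, helps the enzyme form dimers. It was at 479 and 357 in WT libraries and 269 and 275 FPKM in knockouts, and the change of -0.60 (SE 0.232) did not pass (adjusted p = 0.0708). Atp5b, the catalytic beta subunit and the most abundant gene of the enzyme, was at 411 and 365 FPKM (WT) against 296 and 318 FPKM (Irx5KO) (change -0.34, adjusted p = 0.244). Its partner in the F1 head, Atp5a1 (subunit alpha), had a change of the opposite sign, with 191 ± 11.3 FPKM for WT against 208 ± 5.19 FPKM for Irx5KO (change 0.12, adjusted p = 0.637).

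The c subunit of the rotor is encoded by Atp5g1, Atp5g2 and Atp5g3, whose mature proteins are identical. Atp5g2 was at 219 and 169 in WT libraries and 176 and 206 FPKM in knockouts (change -0.01, limma adjusted p = 0.964). Atp5g3 was at 213 and 204 FPKM (WT) against 156 and 169 FPKM (Irx5KO), without overlap (change -0.36, adjusted p = 0.175). Atp5g1 was lower than either, at 97.1 and 66.3 in WT libraries and 61.3 and 79.9 FPKM in knockouts (change -0.19, adjusted p = 0.532). Close copies such as these can share reads, and how the deposited values split them is not given in the sources used here.

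Atp5sl carries an ATP synthase symbol but is known by the later name Dmac2 as a factor in the assembly of complex I (chromosome 7, 25619414 to 25625551, plus strand). It measured 7.25 and 5.03 FPKM (WT) against 12.2 and 11.8 FPKM (Irx5KO), far under the subunits. The groups did not overlap, and the change of 0.88 (SE 0.195, limma adjusted p = 0.00931) was called under every alternative but one, the fit with no filter (adjusted p = 0.146). Atp5s, a related gene that is likewise not a structural subunit, was at 5.21 and 3.72 in WT libraries and 5.30 and 4.94 FPKM in knockouts (change 0.18, adjusted p = 0.484).

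The assembly factors of the symbol rule were transcripts of low level, with means from 1.34 to 8.65 FPKM. Of the 8, 2 rose and none fell (25%, against 26.9% of all rows called higher), and the median change was 0.12, or -0.13 with median-of-ratios scaling and -0.17 with quantile normalization. Ndufaf1, a chaperone of the complex I membrane arm, went from 4.57 and 3.41 FPKM in WT to 8.19 and 7.29 FPKM in Irx5KO (change 0.82, SE 0.184, limma adjusted p = 0.0103). Ndufaf7, a methyltransferase needed to build complex I, went from 3.82 and 3.03 FPKM to 5.62 and 5.31 FPKM (change 0.55, SE 0.174, adjusted p = 0.0364). For both genes the groups did not overlap. Neither was called without Irx5KO replicate 1 (adjusted p = 0.0659 for Ndufaf1 and 0.222 for Ndufaf7) or under quantile normalization (0.0544 and 0.264), and Ndufaf7 also lost its call without Irx5KO replicate 2 (0.149), without WT replicate 2 (0.0813) and with median-of-ratios scaling (0.191). With no filter the adjusted p was 0.133 for Ndufaf1 and 0.165 for Ndufaf7. Ndufaf2, a complex I factor related to a subunit of the matrix arm, was the most abundant and had the lowest change. It was at 11.2 and 9.34 FPKM (WT) against 7.39 and 6.65 FPKM (Irx5KO) (-0.49, adjusted p = 0.0559). With the second WT library left out, and with either median-of-ratios or quantile scaling, Ndufaf2 was called lower. No gene of the 8 was called higher in the quantile-normalized values.

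The median of every complex changed sign with at least 1 way of scaling the libraries. Median-of-ratios scaling, which moved the median of all rows from 0.26 to -0.00, left 1 member higher and 15 lower, against 10.5% and 13.9% of all rows. The 15 were Atp5b, Atp5d, Atp5e, Atp5g3, Atp5j2 and Atp5k of ATP synthase, Cox5a and Cox7b of complex IV, Ndufa1, Ndufb2, Ndufb6 and Ndufc1 of complex I, and Uqcr11, Uqcrh and Uqcrq of complex III. Rescaling each library to the same sum (TPM) moved the median of all rows to 0.50 and left 11 members higher and 1 lower, against 47.9% and 7.52%. The 11 included Atp5sl, Sdha, Uqcrc2 and, under complex I names, Ndufa4l2, Ndufa6, Ndufa8, Ndufa10, Ndufs1, Ndufs5 and Ndufv2. Quantile normalization, with a median of all rows of 0.08, left 4 higher and 0 lower, against 13% and 11.3%, and the 4 were Atp5a1, Atp5sl, Ndufa4l2 and Ndufa6. Relative to the median of all rows, 71 of 76 members were below it under median of ratios, 70 as deposited and under TPM, and 35 under quantile normalization. Median of ratios and TPM divide each library by 1 factor, which moves nearly all rows alike. The counts of 71, 70 and 70 are therefore close to 1 result and not 3. In these scalings the members lay below the bulk of rows, and under quantile normalization they did not.

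**Figure D4:**
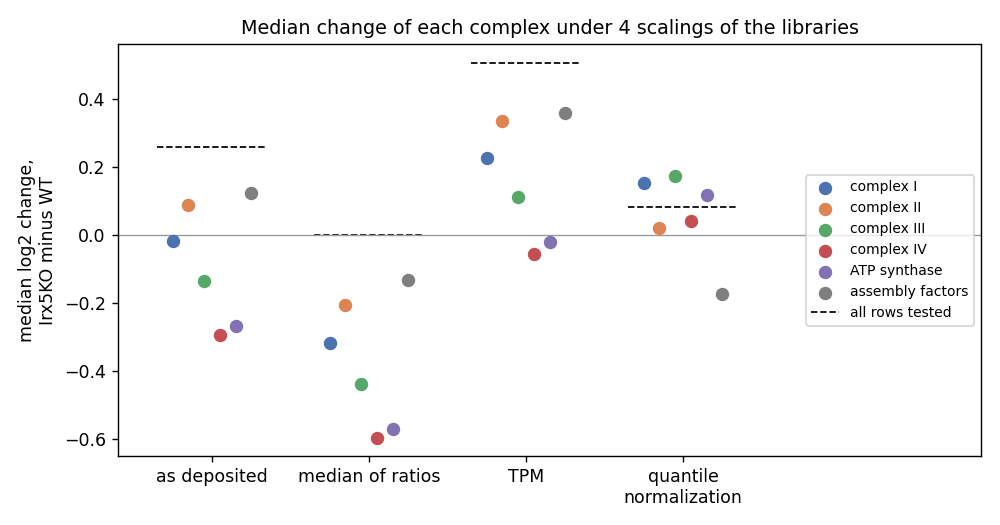
Median change (log2, Irx5KO minus WT) of the tested genes of each complex and of the assembly factors under 4 scalings of the libraries, with the median of all rows tested as a dashed line. The complexes shift with the dashed line and lie below it under the first 3 scalings, whereas under quantile normalization complexes I and III and ATP synthase lie above it.

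Level and transcript length moved with the change, and both set the members apart from most rows. Among all rows with a mean of at least 50 FPKM (1348 rows), 10.4% were called higher and 20.8% lower, and the median change was -0.13. The 55 members above that level had a median of -0.16 with 0 higher and 1 lower. Members were short, with a median principal transcript of 870 bases against 2918 bases over the 11202 tested rows with a length. These are annotated lengths, up to 4715 bases for the member Atp5g1, and which transcripts the epidermis expressed was not tested. Below 1000 bases the median change was -0.06 over all rows (749) and -0.22 over members (44). At or above 1000 bases it was 0.28 over all rows (10453) and 0.00 over members (32). Across the 76 members, change and log2 length had a Pearson r of 0.346 and a Spearman rho of 0.439. Over the 11202 rows with a length, r was 0.155 and rho 0.159. These values are given as a description, since all points share the 4 libraries. The level and length limits were chosen after the values were seen, and their part in the changes was not tested.

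**Figure D5:**
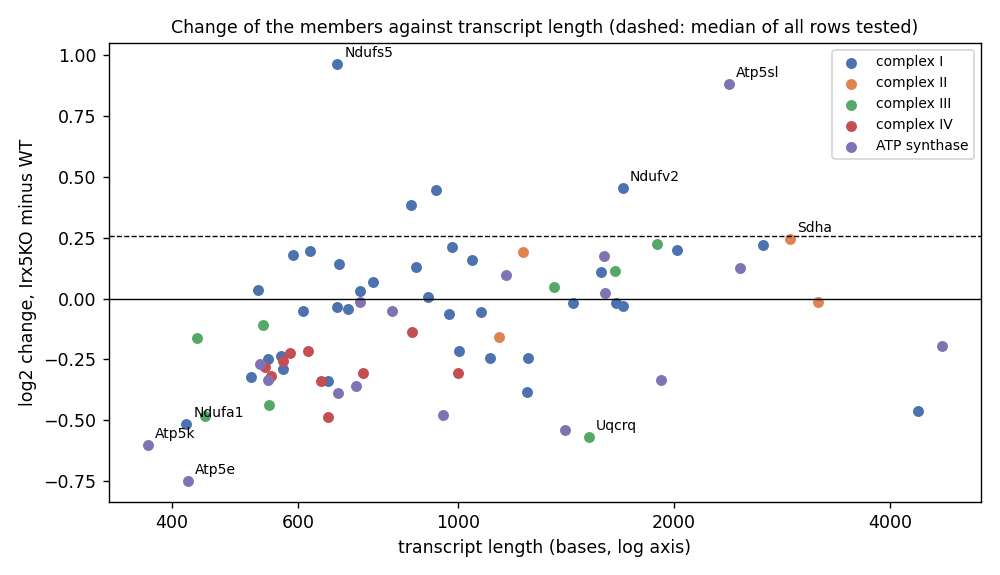
Change of the tested members (log2(FPKM + 1), Irx5KO minus WT), with 1 left out, against the length of the principal GENCODE transcript (log axis), coloured by complex, with the median of all rows tested at 0.26 as a dashed line. Atp5k, Ndufa1 and Atp5e, 3 of the shortest, lie at the lower left, and Atp5sl and Sdha lie among the longer transcripts.

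Of 7 tested subunits and associated proteins whose symbols the rule does not cover, none was called by limma, none had an unadjusted p under 0.05, and their median change was -0.23. They were Cox4i1 of complex IV, Cyc1 (cytochrome c1) of complex III, Ndufab1, the acyl carrier protein of complex I, Cox7a2l, which joins complexes III and IV, Usmg5 and 2010107E04Rik of ATP synthase, and Atpif1, which inhibits that enzyme and is not one of its subunits. Cox4i1 was at 433 ± 78.1 FPKM for WT against 344 ± 46.0 FPKM for Irx5KO (SD, n = 2 each; limma adjusted p = 0.307). Its alternative form Cox4i2, known from lung, did not exceed 0.0369 FPKM.

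Among the mobile carriers and the enzymes of coenzyme Q synthesis, changes ran from -2.72 to 1.60, against -0.75 to 0.96 over the members. Of 19 tested genes, 2 rose and 3 fell (10.5% and 15.8%, against 26.9% and 9.22% of all rows). Cycs, which encodes the cytochrome c that links complexes III and IV, was at 33.0 and 33.9 in WT libraries and 15.4 and 16.7 FPKM in knockouts (change -1.01, SE 0.164, limma adjusted p = 0.00249). Coq10b, a protein that binds coenzyme Q, went from 68.1 and 97.3 FPKM to 9.62 and 13.7 FPKM (change -2.72, SE 0.232, adjusted p = 1.04e-04). Adck3, a kinase-like protein needed for coenzyme Q synthesis, went from 3.56 and 2.27 FPKM to 10.7 and 10.8 FPKM (change 1.60, SE 0.198, adjusted p = 7.21e-04). The groups did not overlap for any of the 3.

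In the values as deposited, genes that build the other complexes or express mitochondrial DNA held a larger share called higher than all rows did. The counts moved with the libraries and settings used, and no test was made against the subunits. Of 24 tested assembly factors of complexes II, III and IV and ATP synthase, 10 rose and 0 fell (41.7% higher, against 26.9% of all rows; median change 0.48, with 13 higher and 1 lower at an unadjusted p under 0.05). Coa5, a complex IV assembly factor, went from 7.77 and 8.30 FPKM to 15.1 and 18.7 FPKM (change 0.98, limma adjusted p = 0.00391), and Coa4, also tied to complex IV, from 3.26 and 1.75 FPKM to 5.76 and 6.43 FPKM (change 1.05, adjusted p = 0.00797). The count was 3 of 24 higher and 1 lower under median of ratios, where 10.5% of all rows were higher and 13.9% lower. Under quantile normalization it was 3 of 24 higher and 2 lower, against 13% and 11.3% of all rows. With both of these scalings the share called higher was thus close to that of all rows. The count was 5 higher with a mean of at least 5 FPKM as the filter and 0 with no filter. The count also moved with the library left out, in both directions of change. In those fits the median change ran from 0.34 (without WT replicate 2) to 0.59 (without WT replicate 1). Among 7 other complex I assembly factors 2 rose, a share of 28.6% that is close to the 26.9% of all rows. They were Tmem186 (change 1.13, limma adjusted p = 0.00266) and Tmem126b (0.83, limma adjusted p = 0.00928). Among 16 genes of mitochondrial DNA and its expression 8 rose (50%, against 26.9% of all rows), with a median of 0.56. The count was 3 of 16 with either median-of-ratios or quantile scaling, where 10.5% and 13% of all rows were higher. It was 5 with the filter on the mean and 0 with no filter. With 1 library left out the count moved too, and the median change ran from 0.36 (without WT replicate 2) to 0.61 (without WT replicate 1). Tefm, the mitochondrial transcription elongation factor, went from 0.899 and 0.980 FPKM to 4.16 and 3.19 FPKM (change 1.26, limma adjusted p = 0.00119). Both WT values were under 1 FPKM, so Tefm, counted among the 8, reached the level for testing only through the Irx5KO libraries. Peo1, the mitochondrial DNA helicase, went from 3.67 and 2.51 FPKM to 8.82 and 7.002 FPKM (change 1.13, limma adjusted p = 0.00379).

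Of 76 mitochondrial ribosomal proteins 12 rose and 1 fell (15.8% and 1.32%, against 26.9% and 9.22% of all rows), with a median of 0.24. The counts were 3 higher and 5 lower with median-of-ratios scaling, against 10.5% and 13.9% of all rows. They were 5 and 2 in quantile-normalized values (13% and 11.3% of all rows). Under TPM they were 36 and 1 (47.9% and 7.52% of all rows), and no filter gave 0 higher. With 1 library left out, the lowest median change was 0.09 (without WT replicate 2, against 0.20 over all rows). The highest was 0.38 (without WT replicate 1, against 0.31 over all rows). Mrpl44 (change 1.20, limma adjusted p = 0.00345) and Mrps31 (0.98, adjusted p = 0.00541) rose and Mrps6 fell (-0.95, adjusted p = 0.00547). The 17 enzymes of the citric acid cycle, which feeds the chain, held 0 calls (limma; 1 gene at an unadjusted p under 0.05) and a median of 0.09.

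Of 13 tested regulators known to act on respiratory genes, 2 rose and 3 fell (15.4% and 23.1%, against 26.9% and 9.22% of all rows). Without either Irx5KO library 0 were higher and 2 lower. Pprc1, a coactivator of the PGC1 family, went from 18.2 and 24.1 FPKM to 7.28 and 6.97 FPKM (change -1.43, SE 0.186, limma adjusted p = 8.98e-04), and Myc, a growth regulator that also acts on mitochondrial genes, fell as well (-3.00, adjusted p = 3.81e-05). Creb1 (0.55, adjusted p = 0.0368) and Ppara (0.55, adjusted p = 0.0334) rose, and neither was called under median of ratios or quantile normalization. The factors whose letters were searched in the promoters were not called: Nrf1 was at 10.6 and 10.8 FPKM (WT) against 8.31 and 8.30 FPKM (Irx5KO) (-0.33, adjusted p = 0.136), Gabpa had a change of 0.39 (adjusted p = 0.128) and Yy1 one of 0.12 (adjusted p = 0.612). Gabpb1, the partner of Gabpa, fell (-0.67, adjusted p = 0.0184). Ppargc1a, the best known coactivator of the family, was between 0.378 and 0.530 FPKM and was not tested.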

How the data were processed

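Bulk RNA-seq of whole mouse epidermis was deposited as 1 table of 23847 rows with a column per sample, 2 WT and 2 Irx5KO. The values are FPKM made by the authors. The build mm10 and the tools Bowtie2 and DESeq2 are listed in the submitters' processing notes. How FPKM were derived, the annotation and any use of strand: not given in the sources used here, so reads may be shared between close copies or between genes that overlap. The labels' protocols name a SMARTER and an Illumina kit and single-end sequencing. With n = 2 per genotype in the design text, 1 library was read as 1 mouse, and the p-values reflect only the spread among these libraries. Depth was inferred from the low values with an assumed fragment of 200 bases, where 63.2% to 66.3% of values of up to 10 fragments fell within 0.1 of a whole number, against 20% by chance. These estimates cover counting error only.

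Rows with at least 1 FPKM in at least 2 libraries (11643) were tested with limma 3.58.1 in R 4.3.3 on log2(FPKM + 1), with a trend in the prior variance, 2-sided, and Benjamini-Hochberg adjustment over all rows at a threshold of 0.05. This scale understates fold changes of genes with low values. With 2 libraries a group, the smallest p of an exact permutation test is 0.333, and none was run. The script was checked on simulated data. Members and gene lists were chosen with earlier results of these data known, and medians over lists carry no test. The genes named are the called members, the most abundant and those with the highest and lowest change of each complex, every complex II gene, alternative isoforms, members below the filter and up to 2 genes per direction in other lists; Ndufs1, Atp5d, Atp5a1, Cox4i1, Gabpa, Gabpb1, Nrf1, Yy1 and Ppargc1a were added after their values were seen. The values of 1 member are not reported here, and it is counted in the totals. The assembly factors follow the symbols Ndufaf and Uqcc. Positions and lengths (APPRIS principal transcript) are from GENCODE M21 (GRCm38, 1-based, all 81 members matched), and promoters from RefSeq. Where coding transcripts of a gene tied in APPRIS rank, the longest was taken. The alternatives were no filter or a filter on the mean (5 FPKM), a pseudocount of 0.1, median-of-ratios, TPM or quantile scaling, no trend, a replicate block, each library left out, and Ndufa4 and Ndufa4l2 counted with complex IV.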

Additional observations from a re-analysis of the deposited data

How the results depend on the processing

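The results are limited by 2 libraries per group, by WT replicate 1 being high for nearly all members, by sex being tied to genotype and by a depth that is only an estimate. No called member or assembly factor changed sign under any alternative. Of these 84 genes, a pseudocount of 0.1 changed no call, median of ratios added 15 calls and ended 1, TPM added 10, quantile normalization added 4 and ended 3, and no filter ended 4. With no filter, 28 rows were called higher and 18 lower and 0 members in either direction. With a mean of at least 5 FPKM, 1898 rows were higher and 0 members lower. Median of ratios gave 1226 rows higher and 1613 lower and 15 members lower, and complex medians of -0.32 (I), -0.21 (II), -0.44 (III), -0.60 (IV), -0.57 (ATP synthase) and -0.13 (assembly factors). TPM gave 5577 rows and 11 members higher and medians of 0.23, 0.33, 0.11, -0.055, -0.022 and 0.36 in the same order. Quantile normalization gave 1516 rows and 4 members higher and 0 members lower, and medians of 0.17 (III), 0.040 (IV), 0.12 (ATP synthase) and -0.17 (assembly factors). No trend gave 2 members lower. With Ndufa4 and Ndufa4l2 in complex IV its median was -0.27. The causes were not tested.

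With the replicate number as a block, 2 members were called higher, Ndufs5 being added, and no other member's call changed. The numbers were not shown to pair the libraries: deviations of same-numbered libraries correlated at -0.0674 over all rows and 0.629 over members, with only 2 pairs. Over the members the median of replicate 1 minus replicate 2 was 0.36 in WT and -0.19 in Irx5KO. Ndufs5 lay far from both medians, at -1.62 and -1.69, and its part in the 0.629 was not tested.

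Leaving out 1 library at a time gave 1457 to 4048 rows higher and 725 to 1275 lower, 1 to 5 members higher and 0 to 10 lower. The 5 higher came without WT replicate 1 and the 10 lower without WT replicate 2. Complex medians ran from -0.18 to 0.15 (I), -0.10 to 0.33 (II), -0.29 to 0.02 (III), -0.44 to -0.075 (IV), -0.42 to -0.0050 (ATP synthase) and -0.02 to 0.22 (assembly factors). A lone library is assumed there to vary like the other group. In the fits without either Irx5KO library, and with the block, limma gave each row the spread common to rows of its level, so a gene's own spread did not enter those p-values.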
